A study of Mus musculus with 12 samples.

Results

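The core clock activators and repressors are the 8 genes Arntl (also named Bmal1), Clock, Npas2, Per1, Per2, Per3, Cry1 and Cry2. They were taken by name, as every probe set (a set of short probes for 1 transcript) that the array annotation assigned to any of them. That rule uses no measured value, but the genes were picked for description with earlier results of these data known. These genes had 20 of the 45101 probe sets on the array, for 8 of 18193 annotated genes. Of the 20 probe sets, 16 exceeded a signal of log2 4 on at least 3 of the 12 arrays and were tested, and each of the 8 genes kept at least 1. The other 4, 1 each for Arntl and Per3 and 2 for Per2, were below that limit.

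The arrays measured RNA of white adipose tissue from male C57/BL6 mice aged 6 to 8 weeks. There were 4 groups of 3 arrays: cold for 5 weeks, control for 5 weeks, cold for 1 week and control for 1 week. Per the labels all mice were housed at 22 °C and the cold groups were adapted to 18 °C for 1 to 3 weeks before being held at 4 °C. The control temperature is 30 °C in the sample titles and room temperature in the source names, so the cold contrast has no settled size in degrees. The genotype is the wild-type strain in every group, with no transgene or drug in the labels. Neither the fat depot nor the hour of tissue collection is given, and for clock genes the hour cannot be told apart from the group where each group was collected at an hour of its own. Whether each array is a mouse of its own is not in the labels, so p-values measure the spread between arrays, which may be technical.

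The mammalian clock is a transcriptional loop that runs in nearly every cell, fat cells included. CLOCK or its paralogue NPAS2 pairs with ARNTL and binds E-boxes, which raises transcription of the Per and Cry genes, and the PER and CRY proteins then return to the nucleus and repress the pair. A second loop acts on Arntl through nuclear receptors: Rev-erb proteins (Nr1d1, Nr1d2) repress it and Ror proteins activate it from the same AGGTCA core. A further arm acts through D-boxes, where DBP, TEF and HLF activate and NFIL3 represses, with Per3 among the known targets. Arntl transcript normally peaks at about the opposite phase to Nr1d1, Dbp and the Per genes, so a single collection hour catches each gene at a different point of its cycle.

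Each of these 3 kinds of element was found in the promoter of a gene whose values are described further on, and the 3 stretches are shown to place those elements. Sequences are from RefSeq, build GRCm38.p6, 5′ to 3′ along the gene's strand, in lower case with the motif in capitals. The Cry1 stretch, chr10:85185055-85185304 on the minus strand, ends at the base before the transcript start and holds the E-box CACGTG, 60 bases before the start.
Cry1: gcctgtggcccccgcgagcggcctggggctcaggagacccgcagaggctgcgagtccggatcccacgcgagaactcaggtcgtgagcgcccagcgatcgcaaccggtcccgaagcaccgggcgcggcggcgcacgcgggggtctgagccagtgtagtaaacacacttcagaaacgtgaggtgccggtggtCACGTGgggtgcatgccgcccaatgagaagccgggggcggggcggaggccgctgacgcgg
The Per3 stretch, chr4:151044666-151044915 on the minus strand, holds the D-box TTATGTAA in 2 places, 205 and 158 bases before the start.
Per3: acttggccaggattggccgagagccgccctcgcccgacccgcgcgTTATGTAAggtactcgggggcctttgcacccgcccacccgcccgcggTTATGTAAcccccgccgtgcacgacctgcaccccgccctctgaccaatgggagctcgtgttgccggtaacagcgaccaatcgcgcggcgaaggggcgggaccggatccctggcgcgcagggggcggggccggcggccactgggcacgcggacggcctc
The Arntl stretch, chr7:113207530-113207559 on the plus strand, lies just after the start and holds the AGGTCA core, whose first base is base 32 after the start.
Arntl: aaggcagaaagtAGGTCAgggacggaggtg

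Promoter windows ran from 250 bases before to 50 bases after a start, and 7 of the 8 genes had at least 1 such window, 11 windows in all. Both strands were searched (CACGTG reads the same on both). CACGTG occurred in the windows of 2 clock genes, Cry1 and Per1, and in 7.15% of all 32851 promoters of that length. TTATGTAA occurred in a window of Per3 alone among the 7 genes, and in 0.938% of all promoters. AGGTCA occurred on the gene's strand in Arntl and on the opposite strand in Clock and Per1, against 16.3% of all promoters. A match of letters is a description and no evidence that a factor was bound in this tissue.

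The cold groups carried the transcript that marks active brown and beige fat: Ucp1, which uncouples respiration to make heat, was 7.71 ± 0.43 higher (log2, SE) in cold than in control at 5 weeks and 7.65 ± 0.43 higher at 1 week. The 6 adipocyte markers averaged between 12.78 and 13.36 on every array, so adipocyte transcripts were present. In cold relative to control 1 of the 6 was called higher and 2 lower at 5 weeks (33.0% of all probe sets called). At 1 week 2 were called higher and 2 lower (45.7% of all). Other cell types moved with the groups. The mean of 10 skeletal muscle markers was 4.23 to 4.42 on the cold 5 week arrays, 8.43 to 8.67 on the control 5 week arrays, 9.96 on cold 1 week array 2 and 4.54 to 5.46 on the other 5 arrays. The macrophage mean was lower on every cold array than on every control array of the same time (10.90 to 10.99 against 11.57 to 11.61 at 5 weeks, 10.64 to 10.91 against 11.50 to 11.74 at 1 week), and so was the lymphocyte mean (8.83 to 8.93 against 9.87 to 9.92, and 8.62 to 9.03 against 9.37 to 10.13). RNA quality also differed: the 3′ minus 5′ signal of Gapdh was 3.01 on cold 5 week array 3 and 3.00 and 3.12 on control 1 week arrays 2 and 3, but between -0.08 and 0.96 elsewhere. For Actb it was 1.84 to 2.80 on the cold 5 week arrays and 1.01 to 1.35 on the other 9.

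**Figure D1:**
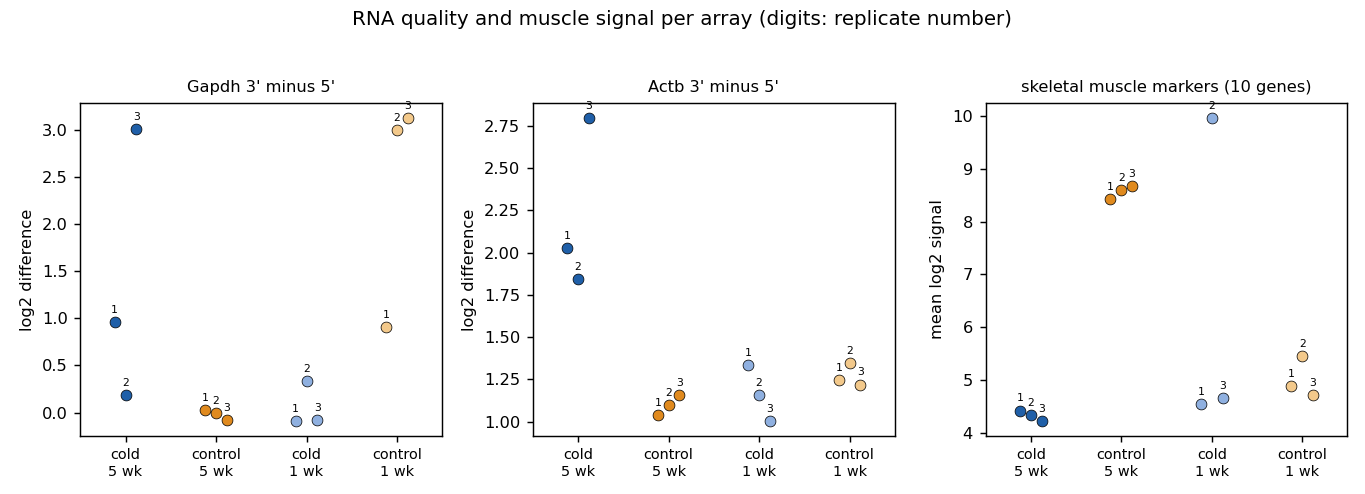
Each point is 1 of the 12 arrays, grouped along the x axis; the panels give the 3′ minus 5′ signal of Gapdh and of Actb and the mean signal of 10 skeletal muscle markers, all in log2 units. Control 5 week arrays and cold 1 week array 2 are high in muscle markers, 3 arrays are near 3 for Gapdh, and the cold 5 week arrays are the highest for Actb.

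Because of these arrays, the calls on the 8 genes are followed by their value with the 3 arrays of highest Gapdh 3′ minus 5′ signal left out, or with the muscle mean as a term, where that ends a call or moves it by more than 1.5 times. Leaving out those 3 arrays keeps only array 1 of control 1 week. Values so fitted for cold against control at 1 week, for control at 5 weeks against 1 week and for the difference of the cold effects rest on that array. A call kept or lost there was therefore no test of RNA quality. In this bulk tissue, fewer cells of a type and less RNA per cell cannot be told apart. The part of the other cell types in the clock values was not tested beyond these fits.

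Between 5 weeks and 1 week, Arntl was lower at 5 weeks in both temperatures. The other called clock genes differed by temperature or by probe set. With the tested probe sets of a gene averaged, Npas2 was called lower and Per3 higher at 5 weeks in both temperatures. A change was called at a limma adjusted p under 0.05 over all 22378 tested probe sets. In the control groups 5 of the 16 clock probe sets were called between 5 weeks and 1 week, 1 higher and 4 lower, from 5 of the 8 genes (Arntl, Clock, Npas2, Per3 and Cry1). Over all tested probe sets 3.36% were called in that contrast, and 1.26% were called lower. The median size of the log2 change, without sign, was 0.43 over the clock probe sets and 0.15 over all. In the cold groups 4 of 16 were called between 5 weeks and 1 week (3 higher and 1 lower), which is below the 28.4% over all probe sets. Centring each array on its median gave 2 higher and 2 lower there, and quantile normalization 2 higher and 1 lower. Of all probe sets called, 48.1% and 48.5% were higher after these scalings, against 51.1% as deposited.

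Between cold and control the clock genes were called no more often than other genes. At 5 weeks 3 of 16 clock probe sets were called, 2 higher and 1 lower in cold, against 33.0% of all. At 1 week 6 of 16 were called, against 45.7% of all; the 6 were lower in cold, where 27.2% of all probe sets were called lower. Scaling mattered for that split. Centring each array on the median of the tested probe sets moved the median change of all genes upward to 0.13 at 5 weeks and 0.11 at 1 week, against -0.04 at both times as deposited. After centring, the 1 week calls were 2 higher and 3 lower, and after quantile normalization 1 higher and 4 lower. At 5 weeks each gave 2 higher and 0 lower. The split moved for all genes too. Of all probe sets called at 1 week, 59.3% were higher after centring and 49.8% after quantile normalization, against 40.5% as deposited. At 5 weeks these shares were 67.8%, 51.0% and 39.5%.

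**Figure D2:**
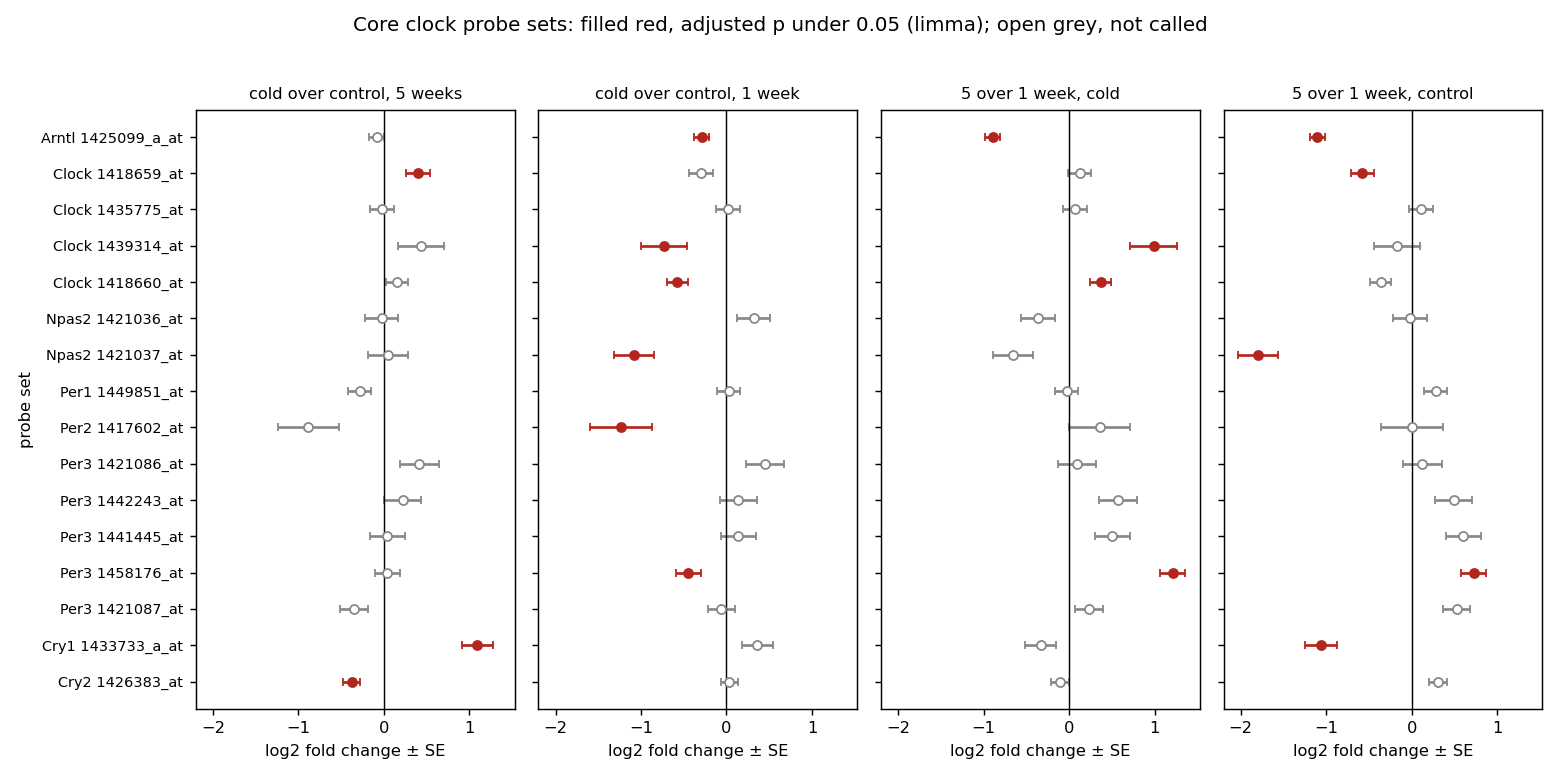
Log2 change (x axis) with its standard error for the 16 tested probe sets of the 8 clock genes in 4 contrasts, with cold over control at 5 weeks and 1 week and 5 weeks over 1 week in cold and in control; filled red points passed the test. Arntl is low in both 5 week over 1 week panels (-0.89 in cold and -1.10 in control), and Cry1 stands out in cold over control at 5 weeks (1.09).

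Arntl is the common partner of CLOCK and NPAS2, and its loss alone stops the clock in mice. Its tested probe set 1425099_a_at read 7.28, 7.34 and 7.31 on the cold 5 week arrays and 7.42, 7.43 and 7.32 on the control 5 week arrays. It read 8.13, 8.32 and 8.16 on the cold 1 week arrays and 8.45, 8.63 and 8.41 on the control 1 week arrays. Every 5 week array lay below every 1 week array, while cold and control were close at 5 weeks and did not overlap at 1 week.

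Arntl fell by 1.10 ± 0.09 (log2, SE) in control at 5 weeks relative to 1 week, a 2.15-fold difference (limma adjusted p = 1.68e-04). In cold it fell by 0.89 ± 0.09, a 1.86-fold difference (adjusted p = 3.09e-04). These contrasts have no array in common, and the difference of their sizes did not pass the test (0.21 ± 0.13, adjusted p = 0.255). Cold against control was -0.08 ± 0.09 at 5 weeks (adjusted p = 0.512) and -0.29 ± 0.09 at 1 week (adjusted p = 0.0196). The fall with duration in control was called under each of the 22 alternatives, from -1.23 to -1.04. In cold it was called under 19 of 20 and missed when the Actb 3′ minus 5′ value was a term (-0.90, adjusted p = 0.21), a signal higher on the 3 cold 5 week arrays than on the other 9; in that fit 1 of all 22378 probe sets was called. The cold effect at 1 week was no longer called after centring (-0.15) or quantile normalization (-0.12), or without the 3 high Gapdh arrays (-0.25, adjusted p = 0.17). It also missed without cold 1 week array 1 or 3 (-0.26 and -0.27) and without control 1 week array 2 (-0.23).

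Npas2 can take the place of CLOCK as the partner of ARNTL. It had 2 tested probe sets, and they did not move alike. The brighter one, 1421036_at, read 4.86 to 5.88 on all 12 arrays and was called in no contrast. The other, 1421037_at, read 4.32, 4.52 and 4.58 in cold at 5 weeks and 4.34, 4.49 and 4.43 in control at 5 weeks. The 1 week arrays read 4.84, 5.63 and 4.92 in cold and 6.50, 6.45 and 5.69 in control, so that all 5 week arrays lay below all 1 week arrays and the 1 week cold arrays below the control ones.

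On 1421037_at Npas2 fell by 1.80 ± 0.23 in control at 5 weeks relative to 1 week, 3.47-fold (limma adjusted p = 0.00427), and by 1.08 ± 0.23 in cold relative to control at 1 week, 2.12-fold (adjusted p = 0.00350). It was -0.66 ± 0.23 in cold at 5 weeks relative to 1 week (adjusted p = 0.0578, and 0.0455 after centring) and 0.05 ± 0.23 in cold relative to control at 5 weeks. These signals lie close to log2 4, the limit used for testing, at 5 weeks, so the sizes of the falls are limited by the low end of the scale. The 1 week cold effect was called in each of its 18 alternatives (-1.37 to -0.94). The fall in control was missed with Gapdh 3′ minus 5′ signal as a term (-1.88, adjusted p = 0.069) and with the control 5 week arrays counted as 1. With the 2 probe sets averaged, Npas2 was called lower at 5 weeks than at 1 week in cold (-0.51, limma adjusted p = 0.0279). The same average was called lower in control (-0.91, limma adjusted p = 0.0126). On 1421036_at alone these changes were -0.36 and -0.02, neither called.

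Clock encodes the other partner of ARNTL and carries histone acetyltransferase activity. Its 4 tested probe sets gave different answers, and their positions in the transcript were not analysed here. The brightest, 1418659_at, read 9.56, 9.47 and 9.42 in cold at 5 weeks, 8.95, 9.09 and 9.20 in control at 5 weeks, 9.59, 9.02 and 9.48 in cold at 1 week, and 9.73, 9.60 and 9.65 in control at 1 week. The control 5 week arrays lay below the cold 5 week and the control 1 week arrays, and cold 1 week array 2 stood below the other 2 of its group.

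On 1418659_at Clock was 0.40 ± 0.14 higher in cold at 5 weeks (limma adjusted p = 0.0433) and fell by 0.58 ± 0.14 in control at 5 weeks relative to 1 week (adjusted p = 0.0466). Both calls sit close to the threshold: leaving out any 1 of the 6 arrays compared ended the first (0.33 to 0.46) and the second (-0.64 to -0.51), and with the muscle mean as a term the first was 0.00 and the second -0.24 (adjusted p = 0.34). Without the 3 high Gapdh arrays they were 0.43 (adjusted p = 0.10) and -0.64 (adjusted p = 0.30). The second was missed in 16 of 22 alternatives.

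Clock probe set 1418660_at was 7.49 ± 0.16 in cold at 5 weeks, 7.34 ± 0.13 in control at 5 weeks, 7.12 ± 0.15 in cold at 1 week and 7.70 ± 0.16 in control at 1 week (SD, n = 3 arrays each). Its values in cold fell by 0.58 ± 0.12 relative to control at 1 week (limma adjusted p = 0.00328) and rose by 0.37 ± 0.12 in cold at 5 weeks relative to 1 week (adjusted p = 0.0455). The rise was called in 4 of 18 alternatives, and missed without cold 5 week array 2 or 3 or cold 1 week array 2 or 3 (0.28 to 0.40). Its value was -0.0153 with the Actb signal as a term, 0.30 (adjusted p = 0.14) with the muscle mean and 0.28 (adjusted p = 0.15) without the 3 high Gapdh arrays. Without those arrays the 1 week fall was -0.42 (adjusted p = 0.087).

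Clock probe set 1439314_at had 1 array far from the rest. It read 8.18, 8.19 and 8.38 in cold at 5 weeks, 7.84, 7.59 and 8.02 in control at 5 weeks, 7.77, 6.51 and 7.51 in cold at 1 week, and 7.87, 8.27 and 7.83 in control at 1 week. Cold 1 week array 2, the array rich in muscle markers, was the lowest of the 12. Cold against control at 1 week was -0.73 ± 0.27 (limma adjusted p = 0.0472) with that array and -0.35 (adjusted p = 0.12) without it, and it missed without any 1 of the 3 control arrays (-0.81 to -0.59). In cold at 5 weeks relative to 1 week the rise was 0.99 ± 0.27 (adjusted p = 0.0207) with it and 0.61 (adjusted p = 0.025) without it; without cold 5 week array 3 it was 0.92 (adjusted p = 0.072). With the muscle mean as a term the 1 week effect was -0.46 (adjusted p = 0.060) and the rise 0.58 (adjusted p = 0.054), and without the 3 high Gapdh arrays they were -0.61 (adjusted p = 0.34) and 0.92 (adjusted p = 0.10). The 1 week effect also missed after centring (-0.59) and quantile normalization (-0.54). The remaining probe set, 1435775_at, ranged from 7.64 to 8.09 and was called in no contrast.

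**Figure D3:**
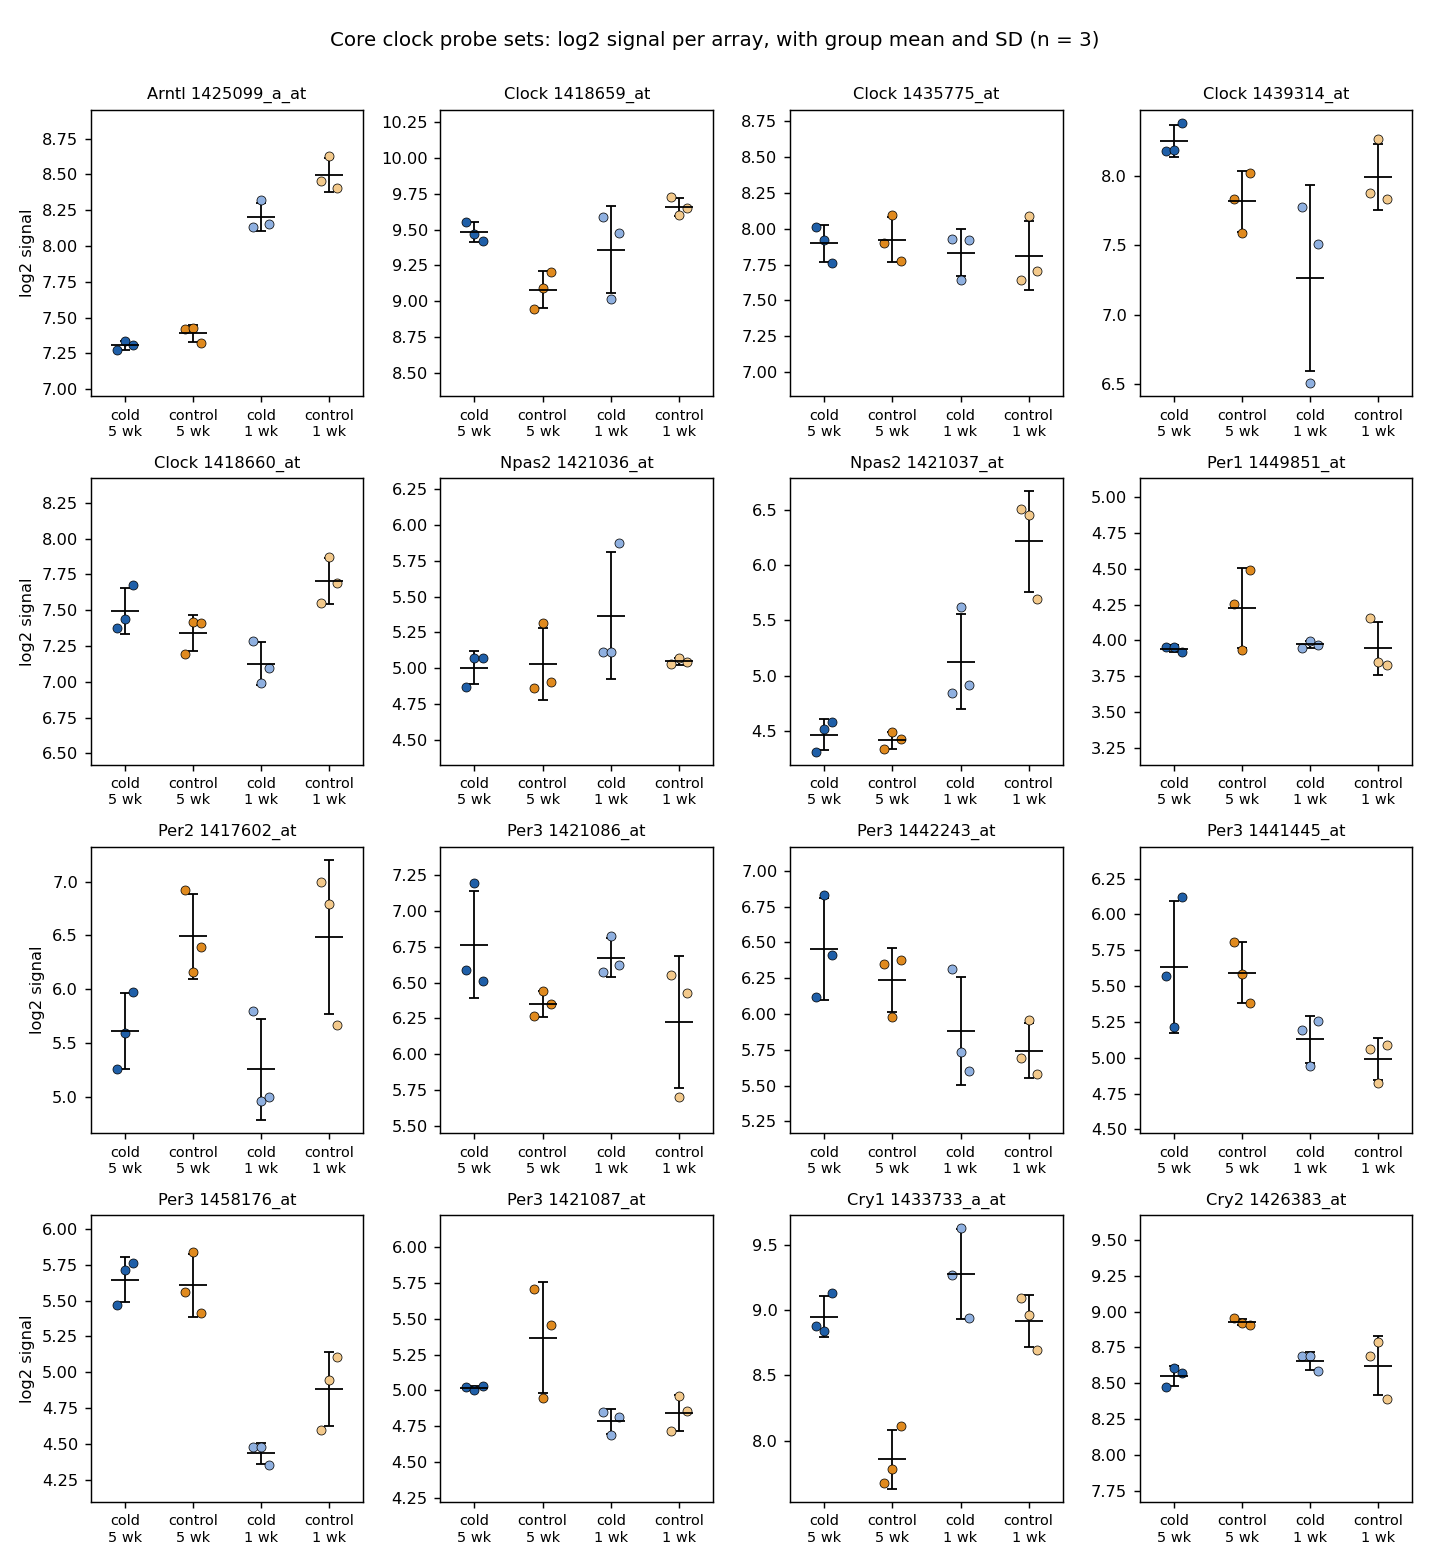
Log2 signal (y axis) of the 16 tested probe sets on each array, 1 panel per probe set, with groups along the x axis; points are arrays and bars the mean ± SD of 3. Arntl separates the 5 week arrays (7.28 to 7.43) from the 1 week arrays (8.13 to 8.63), and Cry1 sets the control 5 week arrays (7.68 to 8.11) below the other 9.

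Of the repressors, Cry1 had the largest called difference between cold and control at 5 weeks. Cryptochrome 1 is the strongest repressor of the ARNTL and CLOCK pair, and its promoter holds the E-box shown above. Its probe set 1433733_a_at read 8.88, 8.84 and 9.13 in cold at 5 weeks and 7.68, 7.78 and 8.11 in control at 5 weeks. At 1 week it read 9.27, 9.63 and 8.94 in cold and 9.09, 8.96 and 8.70 in control. The 3 control 5 week arrays were the lowest of the 12, and the other 3 groups adjoined or overlapped one another.

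Cry1 rose by 1.09 ± 0.18 in cold relative to control at 5 weeks, 2.13-fold (limma adjusted p = 0.00114). In control it fell by 1.06 ± 0.18 at 5 weeks relative to 1 week, 2.09-fold (adjusted p = 0.0135); the 2 contrasts share the control 5 week arrays. Cold against control at 1 week was 0.36 ± 0.18 (adjusted p = 0.125), which was called after centring (0.50, adjusted p = 0.036) and quantile normalization (0.50, adjusted p = 0.040), and 5 weeks against 1 week in cold was -0.33 ± 0.18 (adjusted p = 0.198). The control 5 week arrays are also those with muscle markers; with the muscle mean as a term the cold effect at 5 weeks was 1.51 (adjusted p = 0.0036) and the fall in control was -1.41 (adjusted p = 0.015). The cold effect was called in 20 of 21 alternatives, all but the Actb term (0.62, adjusted p = 0.35). The fall in control was called in 15 of 22 and missed without the 3 high Gapdh arrays (-1.24, adjusted p = 0.13), without control 5 week array 1 or 2 (-0.97 and -1.02) and without control 1 week array 2 (-1.04).

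Cry2, the other cryptochrome repressor, read 8.47, 8.61 and 8.57 in cold at 5 weeks and 8.95, 8.92 and 8.91 in control at 5 weeks on 1426383_at. In the 1 week groups it read 8.69, 8.69 and 8.58 in cold and 8.69, 8.79 and 8.39 in control. The control 5 week arrays were the highest of the 12, the reverse of their place for Cry1. Cry2 fell by 0.38 ± 0.10 in cold relative to control at 5 weeks, 1.30-fold (limma adjusted p = 0.0168), and was 0.03 ± 0.10 at 1 week (adjusted p = 0.804). The fall was smaller and missed the threshold after centring (-0.21, adjusted p = 0.12) and quantile normalization (-0.25, adjusted p = 0.079), and with the muscle mean as a term (-0.31, adjusted p = 0.23). It also missed without cold 5 week array 1 (-0.34) or control 5 week array 1 (-0.36).

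The Period genes encode the partners that carry the cryptochromes into the repressing complex. Per2 had the widest spread within groups. Its tested probe set 1417602_at read 5.26, 5.60 and 5.97 in cold at 5 weeks, 6.93, 6.16 and 6.39 in control at 5 weeks, 5.80, 4.96 and 5.00 in cold at 1 week, and 7.00, 6.79 and 5.67 in control at 1 week. Cold arrays lay below control arrays at 5 weeks, and at 1 week 1 control array fell among the cold ones.

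Per2 fell by 1.23 ± 0.36 in cold relative to control at 1 week, 2.35-fold (limma adjusted p = 0.0162). At 5 weeks the difference was -0.88 ± 0.36 and missed the threshold (adjusted p = 0.0820). The difference of these cold effects was 0.35 ± 0.51 (adjusted p = 0.661), so they were not shown to differ. Between 5 weeks and 1 week Per2 was 0.36 ± 0.36 in cold (adjusted p = 0.491) and 0.00 ± 0.36 in control (adjusted p = 0.997). The 1 week fall was called in 15 of 21 alternatives (-1.75 to -0.98). It missed without cold 1 week array 2 or 3 (-1.09 and -1.11), without control 1 week array 1 or 2 (-0.98 and -1.08) and with the Gapdh term (-1.39, adjusted p = 0.093). At 5 weeks it was called without the 3 high Gapdh arrays (-1.06, adjusted p = 0.037).

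Per3, a Period gene that the clock can run without, has the pair of D-boxes shown above. Of its 5 tested probe sets 1 was called (a further one, 1421086_at, was 0.59 higher in cold at 1 week after centring, adjusted p = 0.043), and the probe sets did not share a pattern of size. That one, 1458176_at, read 5.47, 5.71 and 5.76 in cold at 5 weeks and 5.56, 5.84 and 5.41 in control at 5 weeks. At 1 week it read 4.48, 4.48 and 4.35 in cold and 4.60, 4.95 and 5.10 in control. The 5 week arrays lay above all 1 week arrays, opposite to Arntl, and cold lay below control at 1 week.

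On 1458176_at Per3 rose by 1.21 ± 0.15 in cold at 5 weeks relative to 1 week, 2.32-fold (limma adjusted p = 6.49e-04), and by 0.72 ± 0.15 in control, 1.65-fold (adjusted p = 0.0275). In cold relative to control it was 0.04 ± 0.15 at 5 weeks and fell by 0.45 ± 0.15 at 1 week (adjusted p = 0.0297). On the other 4 probe sets, 5 weeks against 1 week was 0.09, 0.57, 0.51 and 0.23 in cold and 0.12, 0.49, 0.60 and 0.53 in control, in the order 1421086_at, 1442243_at, 1441445_at and 1421087_at, with none called. Leaving out 1 array brought calls on 3 of these 4 probe sets, for example -0.56 for 1421087_at in cold relative to control at 5 weeks without control 5 week array 2 (adjusted p = 0.0066). With the 5 probe sets averaged, Per3 was called higher at 5 weeks than at 1 week in cold (limma adjusted p = 0.0033). The same average was called higher in control (0.49, limma adjusted p = 0.019). The rise in cold on 1458176_at was called in 16 of 17 alternatives (1.05 to 1.30) and that in control in 10 of 19. With the muscle mean as a term the rise in control was 0.69 (adjusted p = 0.13). Without the 3 high Gapdh arrays it was 1.01 (adjusted p = 0.083) and the 1 week cold effect -0.16 (adjusted p = 0.55). Leaving out control 5 week array 1 or 2 or control 1 week array 2 ended the rise in control (0.61 to 0.76), and leaving out cold 1 week array 1 or 3 or control 1 week array 2 or 3 ended the 1 week cold effect (-0.47 to -0.34).

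Per1, the Period gene that light and hormones induce fastest, was at the limit of measurement. Its probe set 1449851_at read 3.96, 3.95 and 3.92 in cold at 5 weeks, 4.25, 3.93 and 4.49 in control at 5 weeks, 3.95, 4.00 and 3.97 in cold at 1 week, and 4.16, 3.85 and 3.83 in control at 1 week. It exceeded log2 4 on exactly 3 arrays, all of them control arrays, and was called in no contrast. In cold relative to control at 5 weeks it was -0.28 (limma adjusted p = 0.135), and without control 5 week array 2, the lowest of its group, it was -0.43 (adjusted p = 0.0288).

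By the lead probe set of each gene, its brightest tested one, the order of the group means differed from gene to gene. Arntl ran, from the lowest, cold 5 weeks (7.31 ± 0.03), control 5 weeks (7.39 ± 0.06), cold 1 week (8.20 ± 0.10) and control 1 week (8.49 ± 0.12), with the 5 week neighbours not separated beyond their spread (SD, n = 3 arrays each). Cry1 ran control 5 weeks (7.86 ± 0.23), control 1 week (8.92 ± 0.20), cold 5 weeks (8.95 ± 0.16) and cold 1 week (9.28 ± 0.34), and only the lowest stood apart from its neighbour by a called difference. Per2 ran cold 1 week (5.25 ± 0.47), cold 5 weeks (5.61 ± 0.35) and the control groups at 5 weeks (6.49 ± 0.39) and 1 week (6.49 ± 0.72), with no called difference between neighbours of one temperature. Cry2 ran cold 5 weeks (8.55 ± 0.07), control 1 week (8.62 ± 0.21), cold 1 week (8.66 ± 0.06) and control 5 weeks (8.93 ± 0.02).

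The cold effect at 5 weeks differed from that at 1 week on 3 of the 16 clock probe sets (2 genes), against 20.3% of all probe sets. These were Clock 1418659_at (0.70 ± 0.19, limma adjusted p = 0.0289), Clock 1418660_at (0.73 ± 0.18, adjusted p = 0.0177) and Npas2 1421037_at (1.14 ± 0.33, adjusted p = 0.0356), each with the more positive cold effect at 5 weeks. After quantile normalization 2 positive and 1 negative differences were called, the negative one being Cry2 (-0.44, adjusted p = 0.0493). None of the 3 was called without the 3 high Gapdh arrays (0.80, 0.49 and 1.37 in that order, with adjusted p of 0.17, 0.21 and 0.094). For Cry1 the difference was 0.73 ± 0.26 (adjusted p = 0.0678), which missed the threshold; it was called without cold 1 week array 2 (0.91, adjusted p = 0.025) and with the muscle mean as a term (1.29, adjusted p = 0.045). With that term the Clock values were 0.17 (adjusted p = 0.61) and 0.55 (adjusted p = 0.20). Leaving out 1 array ended the Npas2 call for 9 of the 12 arrays (0.99 to 1.17) and the first Clock call for 5 of them (0.63 to 0.73).

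Other clock genes were taken from 4 lists by role, on the brightest tested probe set of each. Nuclear receptors and E-box repressors (Nr1d1, Nr1d2, Rora, Bhlhe40 and Bhlhe41 tested) included 3 of 5 called higher and 0 lower at 5 weeks than at 1 week in cold (Nr1d1, Nr1d2 and Rora, against 28.4% of all probe sets called) and 3 of 5 higher and 0 lower in control (Nr1d1, Nr1d2 and Bhlhe40, against 3.36%). The Bhlhe40 call in control held in 10 of 22 alternatives. The list's median change was 0.39 in cold and 1.23 in control, against -0.01 and -0.02 over all tested probe sets. In cold relative to control 0 rose and 1 fell at 5 weeks (33.0% of all were called), and 2 rose and 1 fell at 1 week (45.7% of all).

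Nr1d1, the Rev-erb alpha repressor of Arntl, read 8.88, 8.51 and 8.56 in cold at 5 weeks and 8.29, 8.16 and 8.16 in control at 5 weeks. The 1 week values were 6.96, 6.26 and 6.36 in cold and 5.39, 3.85 and 5.45 in control. Every 5 week array was above every 1 week array, the reverse of Arntl. Nr1d1 rose by 3.30 ± 0.36 in control at 5 weeks relative to 1 week, 9.87-fold (limma adjusted p = 0.00136), and by 2.12 ± 0.36 in cold (adjusted p = 0.00235). It rose by 1.63 ± 0.36 in cold relative to control at 1 week (adjusted p = 0.00375) and was 0.45 ± 0.36 at 5 weeks (adjusted p = 0.366). Without the 3 high Gapdh arrays, which leaves 1 control 1 week array, the rise in control was 2.82. With the Gapdh term it was 2.95 (limma adjusted p = 0.058).

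Nr1d2, the Rev-erb beta paralogue, rose by 1.88 ± 0.19 in cold (limma adjusted p = 3.15e-04) and by 1.23 ± 0.19 in control (adjusted p = 0.00821) at 5 weeks relative to 1 week. Rora, which activates Arntl, rose by 0.39 in cold with duration (adjusted p = 0.00844) and fell by 0.34 in cold relative to control at 1 week (adjusted p = 0.00819); that fall was not called after centring or quantile normalization, or without the 3 high Gapdh arrays (-0.31, adjusted p = 0.10). Bhlhe40 encodes DEC1, a repressor at E-boxes. It read 9.54, 9.27 and 9.02 in cold at 5 weeks, 10.15, 10.32 and 10.20 in control at 5 weeks, 9.55, 9.54 and 9.94 in cold at 1 week, and 9.09, 9.44 and 7.95 in control at 1 week. Its cold effect was -0.95 ± 0.31 at 5 weeks (adjusted p = 0.0354) and 0.85 ± 0.31 at 1 week (adjusted p = 0.0419), of opposite sign, and the difference of these effects was called (-1.80 ± 0.43, adjusted p = 0.0181). Each cold effect alone was called in 10 of 21 alternatives. Any array of the contrast but cold 5 week array 1 ended the 5 week call when left out (-0.98 to -0.82), and the 3 cold 1 week arrays (0.72 to 0.92) and control 1 week array 3 (0.41) did so at 1 week. With the muscle mean as a term the difference of the effects was -1.84 (adjusted p = 0.12), and with the Gapdh term -1.19 (adjusted p = 0.54). In control Bhlhe40 rose by 1.40 ± 0.31 at 5 weeks relative to 1 week (limma adjusted p = 0.0350). That rise missed without any 1 of the 3 control 5 week arrays, and with the Gapdh, Actb or muscle term.

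**Figure D4:**
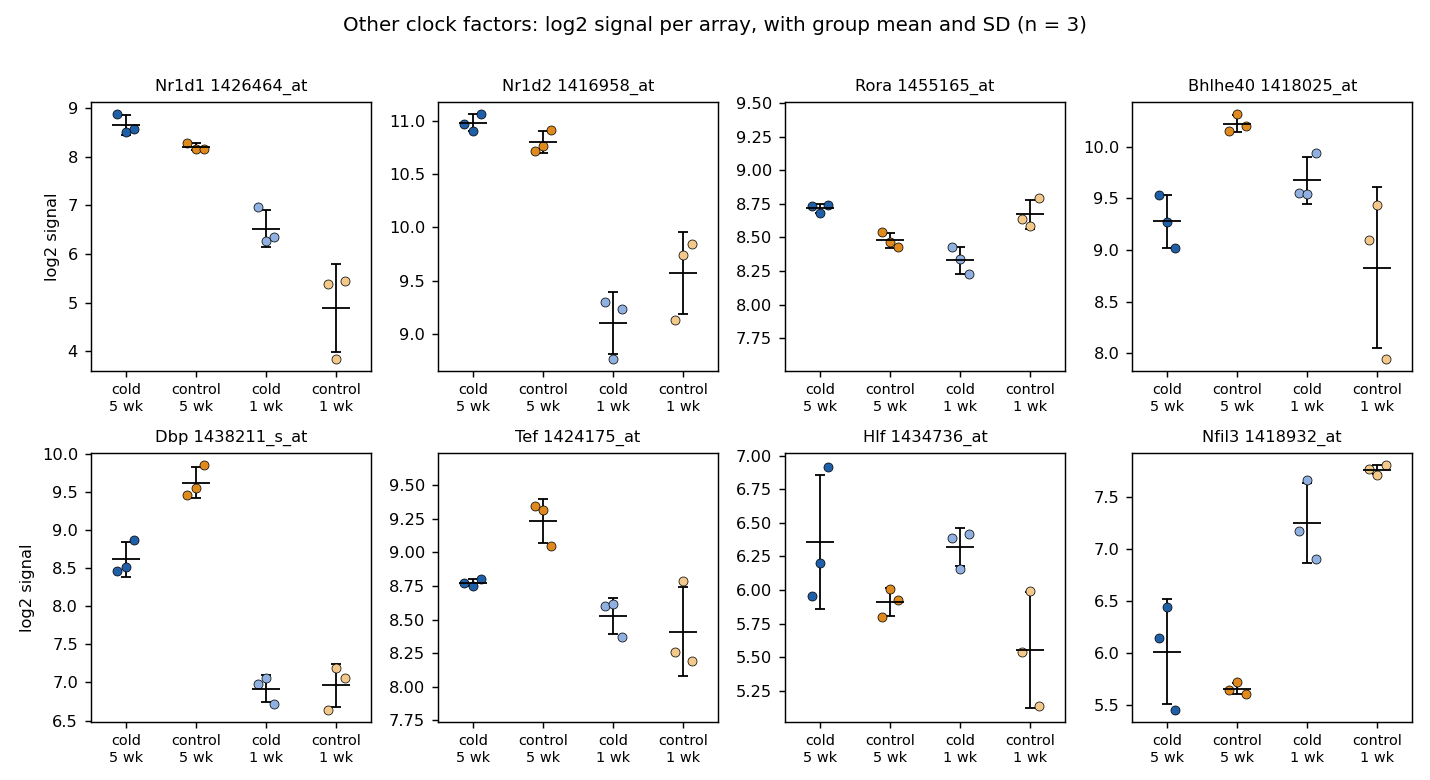
Log2 signal (y axis) on each array for 8 clock transcription factors outside the core set, with groups along the x axis; points are arrays and bars the mean ± SD of 3. Nr1d1, Nr1d2 and Dbp are higher on all 5 week arrays than on all 1 week arrays, and Nfil3 is lower.

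Of the D-box factors, Dbp and Nfil3 moved in opposite directions. Dbp, an activator and a direct target of ARNTL and CLOCK, read 8.46, 8.51 and 8.87 in cold at 5 weeks, 9.46, 9.54 and 9.85 in control at 5 weeks, 6.98, 7.06 and 6.72 in cold at 1 week, and 6.64, 7.18 and 7.05 in control at 1 week. The 5 week arrays were all above the 1 week arrays, and at 5 weeks cold lay below control. Dbp rose by 2.66 ± 0.17 in control (6.31-fold, limma adjusted p = 4.80e-05) and by 1.70 ± 0.17 in cold (adjusted p = 3.23e-04) at 5 weeks relative to 1 week. It fell by 1.01 ± 0.17 in cold relative to control at 5 weeks (adjusted p = 0.00130) and was -0.04 at 1 week (adjusted p = 0.851), and these cold effects differed by -0.96 ± 0.24 (adjusted p = 0.0205; -0.72 and adjusted p = 0.23 with the muscle mean, -1.61 and 0.13 with the Gapdh term). The fall at 5 weeks missed only with the muscle mean as a term among 21 alternatives (-0.82, adjusted p = 0.064).

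Nfil3, the D-box repressor, read 6.15, 6.44 and 5.46 in cold at 5 weeks and 5.65, 5.72 and 5.61 in control at 5 weeks. At 1 week it read 7.17, 7.67 and 6.91 in cold and 7.77, 7.72 and 7.81 in control. It fell by 2.11 ± 0.23 in control (4.31-fold, limma adjusted p = 0.00163) and by 1.23 ± 0.23 in cold (adjusted p = 0.00398) at 5 weeks relative to 1 week. The Nfil3 fall in control was called in 20 of 22 alternatives, and the 2 others leave 1 array in a group. That in cold was called in 19 of 20. It missed with the Actb term (limma adjusted p = 0.81), where 1 of all 22378 probe sets was called. Tef, a further activator, rose by 0.82 ± 0.15 in control with duration (adjusted p = 0.0190) and fell by 0.46 in cold relative to control at 5 weeks (adjusted p = 0.0389), a value not called after either scaling or without any array of the contrast but control 5 week array 3 (-0.47 to -0.40). Its rise missed without control 5 week array 1 or 2 or control 1 week array 3 (0.71 to 0.78), and without the 3 high Gapdh arrays (0.98, adjusted p = 0.065). Hlf, the last of the list, was 0.76 higher in cold at 1 week (adjusted p = 0.0268), and missed without cold 1 week array 1 or 3 or control 1 week array 1 or 3 (0.55 to 0.76). Over the 4 D-box factors, 2 rose and 1 fell in control with duration (3.36% of all probe sets called), 1 rose and 1 fell in cold (28.4%), 0 rose and 2 fell with cold at 5 weeks (33.0%), and 1 rose and 0 fell with cold at 1 week (45.7%).

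**Figure D5:**
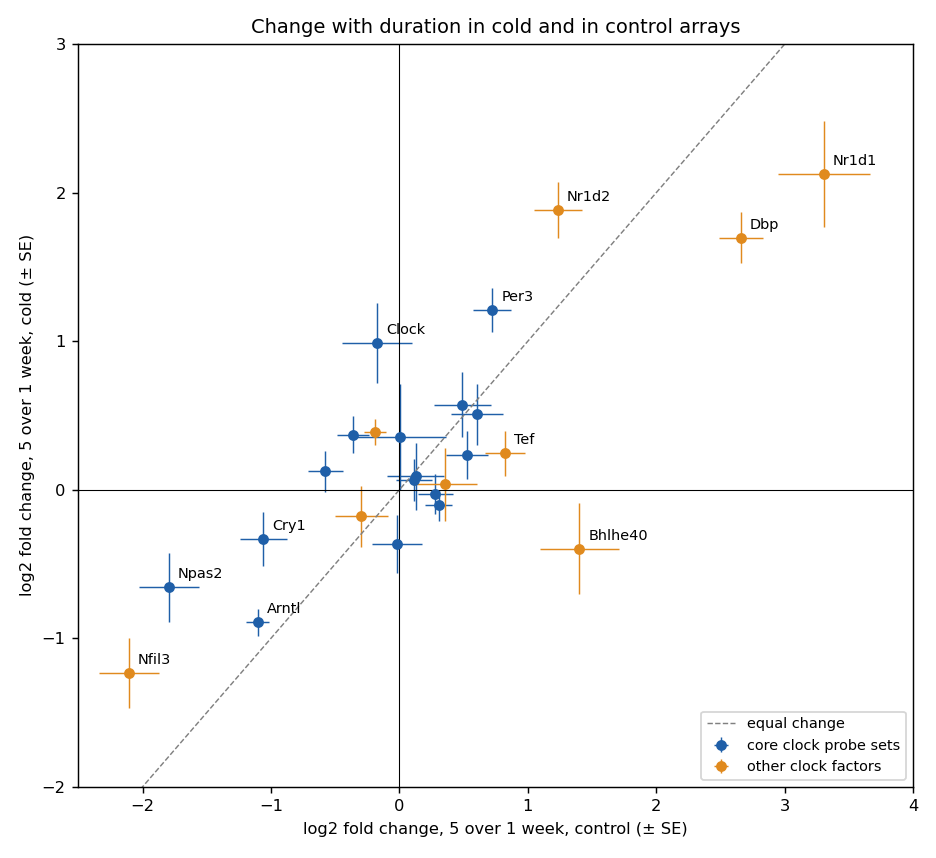
Change between 5 weeks and 1 week (log2, 5 weeks over 1 week), in control on the x axis and in cold on the y axis. Blue points are the 16 tested probe sets of the core genes. Orange points are the nuclear receptors, E-box repressors and D-box factors, on the brightest tested probe set of each. The dashed line marks equal change. Nr1d1 (3.30 in control and 2.12 in cold), Dbp (2.66 and 1.70) and Nr1d2 (1.23 and 1.88) lie at the upper right, and Nfil3 (-2.11 and -1.23) and Arntl (-1.10 and -0.89) at the lower left.

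Kinases and ubiquitin ligases set the life of PER and CRY proteins. Of 6 tested, 2 rose with cold at 1 week, where 45.7% of all probe sets were called, and the list's median change was 0.41 against -0.04 over all: casein kinase Csnk1d by 0.64 ± 0.16 (limma adjusted p = 0.00849) and the ligase subunit Btrc by 0.63 ± 0.16 (adjusted p = 0.00774). At 5 weeks, and with duration in either temperature, 0 of the 6 were called in limma. Csnk1d was 0.45 in cold relative to control at 5 weeks (limma adjusted p = 0.0549), and 0.63 without cold 5 week array 1 (adjusted p = 0.010). With its tested probe sets averaged, Csnk1d was called lower in that contrast (-0.26). The Btrc rise at 1 week missed with its tested probe sets averaged. The Csnk1d rise at 1 week was 0.49 and the Btrc rise 0.52 without the 3 high Gapdh arrays, which leaves 1 control 1 week array and no spread for that group.

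Of 6 other partners and clock-controlled genes, Timeless and Nampt changed with cold at both times. Timeless, whose product acts at replication forks and binds clock proteins, fell in cold relative to control by 0.77 at 5 weeks (limma adjusted p = 0.00534) and by 1.11 at 1 week (adjusted p = 4.13e-04). Nampt, the NAD salvage enzyme whose gene carries clock-driven E-boxes, rose by 0.67 at 5 weeks (adjusted p = 8.48e-04) and by 0.45 at 1 week (adjusted p = 0.00564); the first was 0.39 (adjusted p = 0.056) with the muscle mean as a term and the second 0.48 (adjusted p = 0.065) without the 3 high Gapdh arrays. Over the list 1 rose and 1 fell at 5 weeks (33.0% of all called), and 2 rose and 2 fell at 1 week (45.7%). Usp2, a deubiquitinase under clock control, rose by 0.92 with cold at 1 week (adjusted p = 0.00350), and Nono, an RNA-binding partner of PER, fell by 0.44 (adjusted p = 0.0207), which missed after centring, without the 3 high Gapdh arrays (-0.24, adjusted p = 0.37) and without cold 1 week array 1 or 3 or control 1 week array 2 or 3 (-0.41 to -0.35). The 1 week rises of Usp2 and Nampt missed with the tested probe sets of each gene averaged. With duration 0 of 6 were called by limma in cold (28.4% of all) and 1 fell in control (3.36%). That gene was Arntl2, a paralogue of Arntl that can stand in for it (-1.03, adjusted p = 0.0419), named after its values were seen; it was called in 7 of 21 alternatives and missed without any 1 of 5 arrays, all but control 1 week array 1 (-1.14 to -0.89).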

How the data were processed

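The authors deposited log2 signals, 1 per probe set and array; GCRMA is named in the submitters' processing notes, with version, settings and genome build not given in the sources used here. GCRMA subtracts background and normalizes between arrays, so dim signals are pulled together near the low end and their differences are understated. Array medians were 4.79 to 4.89, and arrays of a group correlated at r of 0.991 to 0.998. Precision is limited by 3 arrays a group.

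Symbols came from the array annotation, updated by gene identifier: 34945 probe sets named 1 gene, 932 several and 9211 none, and the last 2 kinds and 64 controls were left out. Tested probe sets exceeded log2 4 on at least 3 arrays (22378, for 12855 genes). In R 4.3.3, limma 3.58.1 fitted 4 group means over all 12 arrays (lmFit, eBayes, 2-sided). Benjamini-Hochberg adjustment ran over all tested probe sets of a contrast, with a call at 0.05. The fit was tested on simulated data. Promoters were matched by symbol to RefSeq, GRCm38.p6; of the 8 genes 7 matched.

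Every probe set of the 8 genes is reported. Other clock genes are given on the brightest tested probe set, with values for at most 4 members a list. These had the smallest adjusted p over the 5 contrasts. Beyond that rule, Arntl2 was added after its values were seen, and Fbxw11 is named only for its reversed values. The genes and lists were chosen with earlier results of these data known. Replicate numbers were not used to pair the arrays, since the labels do not say what they mark. Deviations of same-numbered arrays from their group means correlated at -0.18 to 0.19 (median -0.01, 18 pairs). Those of other-numbered arrays correlated at -0.35 to 0.30 (median -0.003, 36 pairs). With 3 arrays a group, a weak shared effect could be missed. Alternatives covered the filter, scaling, probe sets per gene, arrays fitted, variance model, replicate block, RNA quality and muscle terms, and left-out arrays. The fit without the 3 arrays of highest Gapdh 3′ minus 5′ signal was added after seeing the data.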

Additional observations from a re-analysis of the deposited data

Results flagged for a closer look

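By the interaction term of the limma fit (adjusted p under 0.05), 20.3% of all tested probe sets were called. On 8 clock probe sets the cold effect at 5 weeks differed from that at 1 week by that term. Values are the 5 week cold effect minus the 1 week cold effect, in log2 units. Of the core genes they were Clock 1418659_at (0.70, from cold effects of 0.40 and -0.30), Clock 1418660_at (0.73, from 0.15 and -0.58) and Npas2 1421037_at (1.14, from 0.05 and -1.08). Of the other clock genes they were Rora (0.58), Bhlhe40 (-1.80), Dbp (-0.96), the ligase subunit Btrc (-0.73) and Arntl2 (1.06). The core calls were 3 of 16 tested probe sets. Of 5 nuclear receptors and E-box repressors, 1 was called positive and 1 negative. The other calls were 1 of 4 D-box factors, 1 of 6 kinases and ligases and 1 of 6 other partners. Leaving out the 3 arrays of highest Gapdh 3′ minus 5′ signal keeps 1 control 1 week array, and Bhlhe40 was then -1.40 and Dbp -1.41. None of the 8 was called with the Gapdh or the Actb term, where 5 and 0 of all 22378 probe sets were called. Neither Bhlhe40 nor Dbp was called with the Gapdh term (-1.19 and -1.61), the Actb term (-1.44 and -1.60), the muscle mean (-1.84 and -0.72) or the control 5 week arrays averaged, and Dbp was not called without the 2 high Gapdh control 1 week arrays (-1.28). The effects compared share no array, but each uses the control arrays of its own time. No outlier test was run on the groups of 3 arrays, but each array was left out in turn.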

How the results depend on the processing

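The clock probe sets called numbered 3, 6, 4, 5 and 3, in the order cold against control at 5 weeks and at 1 week, duration (5 weeks over 1 week) in cold and in control, and the interaction. With the replicate number as a block, whose meaning the labels do not give, they were 3, 5, 4, 4 and 3. Of the 21 single calls, 21 remained with signals below log2 4 set to 4, 20 with a variance trend, 16 after centring, 15 after quantile normalization, 12 with the muscle mean, 9 with the Actb signal, 8 without the 3 arrays of highest Gapdh 3′ minus 5′ signal and 6 with the Gapdh signal as a term.

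Counts moved by more than 1.5 times as follows. Cold against control at 5 weeks gave 5 with its groups fitted alone, 0 with the Actb term, 1 with the muscle term and 1 with the control 5 week arrays averaged. At 1 week it gave 2 with the brightest probe set per gene, 3 with the mean per gene, 2 with its groups alone, 1 with the Gapdh term, and 2 without either the 2 control 1 week or all 3 high Gapdh arrays. Duration in cold gave 1 with the brightest probe set, 2 with its groups alone, 2 with the Gapdh term, 0 with Actb, 2 with muscle and 2 without the 3 arrays. Duration in control gave 3 with a filter at log2 6, 3 with the brightest probe set, 1 with Gapdh, 3 with muscle, 1 with the control 5 week arrays averaged, and 2 without the 2 or the 3 arrays. The interaction gave 1 with the brightest or the mean probe set, and 0 with Gapdh, Actb, the averaged arrays, or without the 2 or the 3 arrays. The per-gene fits tested 8 genes in place of 16 probe sets, and the averaged and left-out fits used fewer arrays. The averaged fit leaves control 5 weeks with 1 array, and leaving out the 2 or the 3 arrays does so for control 1 week. Calls over all 22378 probe sets moved too. At 5 weeks 7956 were called with groups alone and 1032 with Actb, against 7395. At 1 week Gapdh gave 4332 against 10235. Duration in cold gave 1 with Actb against 6352, and in control 66 with Gapdh against 751. The interaction gave 5 with Gapdh and 0 with Actb against 4533. The cause of the other moves was not tested.

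Leaving out each array in turn gave 1 to 4, 2 to 5, 2 to 6, 2 to 4 and 1 to 5 calls. The arrays that moved a count by over 1.5 times were cold 5 week array 1 and control 5 week array 1 (1 call each, cold at 5 weeks), control 1 week array 2 (2, cold at 1 week), cold 5 week array 3 (2, duration in cold), control 5 week arrays 1 and 2 and control 1 week array 2 (2, 3 and 2, duration in control), and control 5 week arrays 1 and 2, cold 1 week array 2 and control 1 week array 2 (1, 1, 5 and 1, interaction).

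Of 1666 single clock values under an alternative, 1484 stayed on their side of the threshold, 31 passed it, 150 missed it and 1 reversed. That was Clock 1418660_at in cold at 5 weeks against 1 week, -0.0153 with the Actb term against 0.37. A value called in neither fit counted as staying whatever its sign. Some such values changed sign, for example Npas2 1421036_at in cold against control at 1 week (0.32, and as low as -0.38). Among other clock genes the mean of the tested probe sets per gene reversed cold against control at 5 weeks for Csnk1d (-0.26 against 0.45) and Fbxw11 (-0.33 against 0.06) and the Fbxw11 interaction (-0.61 against 0.21), and the Actb term reversed the Btrc interaction (0.10 against -0.73). Signals near log2 4 (Per1, Npas2 at 5 weeks) limit the size of a measured difference.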

Other observations

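The 4 clock probe sets below the filter were dim on all 12 arrays: Arntl 1457740_at read 2.10 to 2.42, Per2 1417603_at 2.88 to 3.22, Per2 1457350_at 2.40 to 2.62 and Per3 1460662_at 2.10 to 2.38. They say nothing of the direction of these genes.

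Over the 12 arrays, the genes outside the core set with the signal most like Arntl were Psap (Pearson r = 0.946), Dnajc7 (0.946) and Nfil3 (0.942), out of 12847 genes ranked on their brightest tested probe set. For Per2 they were Camk2n1 (0.931), Inmt (0.920) and Arap3 (0.911), and for Cry1 they were Ergic1 (0.950), Cdc123 (0.949) and Asns (0.936). These correlations run over arrays that share groups, array quality and muscle signal. They are the highest of many and are given as a description.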
